A study of Homo sapiens with 4 samples.

Results

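The genes described here are ANGPTL4, PLIN2 and other genes of the PPAR network in NB4 cells, a human line labelled as acute promyelocytic leukemia in the study, after knockdown of LDB1. The members were taken by name as ANGPTL4, PLIN2, CPT1A, PDK4, ACADVL, CD36, PPARA, PPARD and PPARG. Of these 9 genes, 8 had a row among the 28412 genes of the deposited expression table, and PPARG was not analysed here. The set was chosen by the FPKM values of ANGPTL4 in these same libraries, for its large difference between the groups, so ANGPTL4 is described without a test. RNA-seq was performed on 4 libraries, 2 from cells with the control lentiviral vector sh-NC and 2 from cells with the lentiviral vector sh-LDB1, called controls and knockdown libraries below. Both groups therefore carried a vector, although the sample labels call the control untreated. More than 1 shRNA against LDB1 was designed. Neither the one sequenced nor the origin of the replicates is named in the labels, so the p-values measure only the spread between these libraries. LDB1, an adaptor of LIM-domain transcription factor complexes, was at 135.1 and 120.1 FPKM in the controls and 10.2 and 9.47 FPKM after knockdown. FPKM are fragments per kilobase of gene scaled to library size, so levels can be compared between genes.

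The labelled cell type was checked against marker genes. Of 11 promyelocytic markers, 9 had values, with a summed level of 13.4 and 11.96 FPKM in the controls and 41.9 and 38.1 FPKM after knockdown. ELANE, which encodes neutrophil elastase, had 0 FPKM in 3 libraries, with 0.182 FPKM in sh-LDB1 replicate 1. Of the 6 promyelocytic markers averaging 1 FPKM or more, 3 rose by a log2 difference above 1 and 0 fell by as much. With a limma adjusted p below 0.05 as well, 9.5% of all 13300 genes averaging 1 FPKM or more rose and 10.3% fell. The 3 were CSF3R (2.25), LYZ (1.59) and PRTN3 (1.42), with limma adjusted p-values of at most 0.000661. Other markers of the list were lower. CEBPE went from about 44 and 33 reads in the controls to 26 and 9 reads after knockdown. MS4A3 went from about 16 and 3 reads to 0 and 0 reads. All 16 erythroid markers had values, with a summed level of 4317 and 4507 FPKM in the controls and 450.5 and 413.7 FPKM after knockdown. The libraries thus carried little of the promyelocytic markers and abundant erythroid transcripts, which were lower in sh-LDB1. In bulk RNA, fewer cells of a type and less RNA per cell cannot be told apart.

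PPARs (peroxisome proliferator-activated receptors) are nuclear receptors that bind fatty acids and their derivatives. They pair with RXR and bind DNA at direct repeats of a short half-site separated by a single base, called DR1 elements. Without ligand they are held by corepressors, and with ligand they recruit coactivators and induce genes of fatty acid uptake, storage and burning. ANGPTL4, PLIN2, PDK4 and CPT1A are among the classic PPAR-induced genes in many cell types. ANGPTL4 is a secreted inhibitor of lipoprotein lipase, PLIN2 coats lipid droplets, PDK4 shuts the pyruvate dehydrogenase complex by phosphorylation, CPT1A admits long-chain fatty acids to mitochondria, ACADVL opens their oxidation there, and CD36 takes them up at the cell surface.

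To show what the members share in sequence, the genome was searched within 5000 bases of each gene start for the DR1 consensus, AGGTCA, any 1 base and AGGTCA again, on both strands, in GRCh38. The third intron of ANGPTL4 is known to hold a PPAR-responsive element. For 6 genes, 1 of the closest DR1-like stretches is printed, in capitals within 12 flanking bases on each side and in the direction of the consensus. ANGPTL4 held 9 equally close stretches, CPT1A 4 and ACADVL 2, and of these the ones with the same letters were picked, whereas PLIN2, CD36 and PDK4 held 1 each. They are shown because ANGPTL4, CPT1A and ACADVL hold nearly the same letters. Whether any of these stretches is bound in these cells was not tested.
ANGPTL4, chr19:8367585-8367597, minus strand, intron 3: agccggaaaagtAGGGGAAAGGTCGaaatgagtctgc
CPT1A, chr11:68839400-68839412, plus strand, intron 1: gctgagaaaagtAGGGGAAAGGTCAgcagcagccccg
ACADVL, chr17:7220355-7220367, plus strand, intron 2: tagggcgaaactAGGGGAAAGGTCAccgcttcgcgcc
PLIN2, chr9:19129807-19129819, minus strand, before the start of the canonical transcript: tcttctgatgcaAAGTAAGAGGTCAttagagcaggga
CD36, chr7:80633850-80633862, plus strand, before the start of the canonical transcript: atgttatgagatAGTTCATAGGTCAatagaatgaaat
PDK4, chr7:95601229-95601241, plus strand, before the gene start: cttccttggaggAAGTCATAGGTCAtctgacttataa

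The stretch AGGGGAAAGGTC was present once near each of ANGPTL4, CPT1A and ACADVL, and near 55 of 19970 protein-coding gene starts, or 0.275% of them. It was chosen after these sequences had been seen. CD36 and PDK4 each held a site with 1 mismatch to the 12 fixed letters of the consensus, as did 9.52% of gene starts. The closest sites of PLIN2, CPT1A, ACADVL and PPARA had 2 mismatches, which 63.3% of gene starts reached or bettered, and those of ANGPTL4 and PPARD had 3. A second motif, CANNTG followed after 7 to 9 bases by AGATAA, the E-box and GATA letters that complexes with LDB1 can bind, was found near none of the 8 genes, against 9.21% of gene starts. Such matches describe letters only, and an absent match says only that these letters are not in the window.

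**Figure D1:**
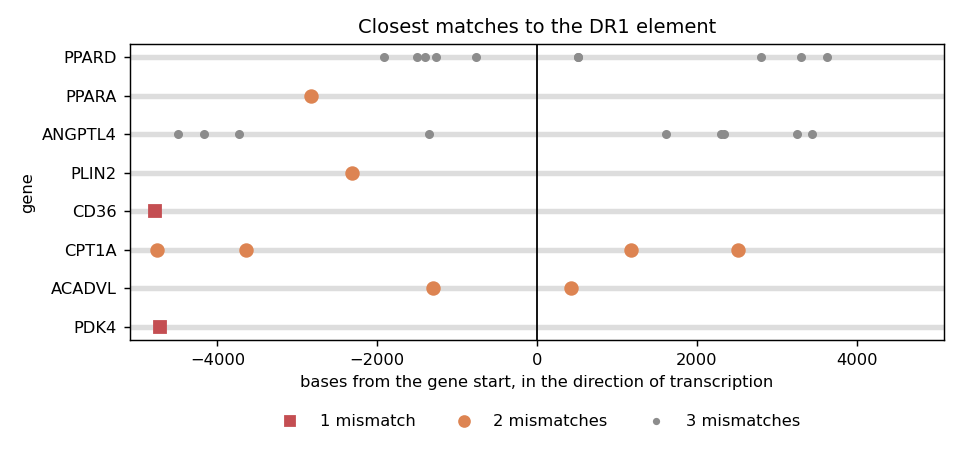
Position of the closest DR1-like sites of each gene, in bases from the start of its canonical transcript (x axis, positive in the direction of transcription), for the 8 PPAR genes (y axis). Squares are sites with 1 mismatch, large circles with 2 and small dots with 3, and only the closest class of each gene is drawn: the sites of CD36 and PDK4 lie at -4786 and -4719, and the ANGPTL4 site printed in the text lies at 3436.

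The members that were higher in sh-LDB1 were compared first. ANGPTL4 (ENSG00000167772, chr19:8363289-8374370, plus strand, 7 exons in the canonical transcript) was at 1.44 and 1.31 FPKM in the controls and 27.3 and 29.4 FPKM after knockdown. Both sh-LDB1 libraries were far above both controls. The mean was 1.38 ± 0.0938 FPKM without and 28.3 ± 1.49 FPKM with the knockdown (SD, n = 2 per group), a 20.6-fold ratio. These levels correspond to about 58 and 48 reads in sh-NC and about 1082 and 1101 reads in sh-LDB1. On the scale log2(FPKM + 1), which was used for all tests and understates the change of low genes, the difference was 3.62 with a standard error of 0.0677. Among the 13300 genes tested, those averaging 1 FPKM or more, this difference ranked 9 from the top.

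Among the receptors themselves, PPARD was the more abundant and rose. PPARD (ENSG00000112033, chr6:35342558-35428191, plus strand), the PPAR found in most tissues, was at 7.10 and 6.41 FPKM in the controls and 29.1 and 29.6 FPKM after knockdown. The groups were well apart, with means of 6.75 ± 0.490 and 29.3 ± 0.319 FPKM (SD, n = 2 each). The ratio of means was 4.35-fold, and the log2 difference was 1.97 with a standard error of 0.0623 (adjusted p = 9.77e-05 by limma with the Benjamini-Hochberg method). About 512 and 421 reads in the controls and 2079 and 1994 reads after knockdown stood behind these levels. In sh-LDB1 the levels of PPARD and ANGPTL4 overlapped, whereas in sh-NC PPARD was above ANGPTL4 in both libraries.

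PPARA, the receptor best known for driving fatty acid oxidation in liver, was low. Its level was 1.15 and 1.08 FPKM in the controls and 1.88 and 1.82 FPKM after knockdown. The libraries did not overlap, and PPARA rose by 0.43 on the log2 scale (standard error 0.111, limma adjusted p = 0.0245). This call did not pass the threshold of 0.05 when any 1 of the 4 libraries was left out (adjusted p from 0.0591 to 0.12). PPARD was 6.15 and 5.95 times as abundant as PPARA in the controls and 15.5 and 16.2 times as abundant after knockdown.

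The 250 bases before the start of the members with the highest differences, ANGPTL4 and PPARD, are printed from the RefSeq promoter table (GRCh38.p14), with the letters TATAAA in capitals where present. All 9 gene names matched that table.
ANGPTL4, chr19:8363905-8364154, plus strand: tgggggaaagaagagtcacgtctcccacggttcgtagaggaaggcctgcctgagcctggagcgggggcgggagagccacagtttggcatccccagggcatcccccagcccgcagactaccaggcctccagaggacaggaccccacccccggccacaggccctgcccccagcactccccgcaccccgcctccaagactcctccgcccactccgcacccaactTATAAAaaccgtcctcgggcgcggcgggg
PPARD, chr6:35342308-35342557, plus strand: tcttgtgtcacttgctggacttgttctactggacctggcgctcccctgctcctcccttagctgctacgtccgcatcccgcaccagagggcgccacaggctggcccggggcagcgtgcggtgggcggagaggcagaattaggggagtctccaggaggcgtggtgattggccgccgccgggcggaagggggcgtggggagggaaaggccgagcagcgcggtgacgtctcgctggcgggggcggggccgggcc
The ANGPTL4 window ends at its RefSeq start and lies inside the span of its longer GENCODE transcripts. In the direction of transcription TATAAA occurred once in the ANGPTL4 window and not in that of PPARD, and it occurred in 6.8% of the 35116 windows of the table. The windows held 68.8% and 70.8% G and C, against a median of 58% over the table.

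The effector genes of the set differed among themselves. PLIN2 (ENSG00000147872, chr9:19108375-19149290, minus strand) was at 10.3 and 9.55 FPKM in the controls and 11.4 and 11.6 FPKM after knockdown. The libraries did not overlap, but the ratio of means was only 1.16-fold. PLIN2 rose by 0.2 on the log2 scale (standard error 0.0573, limma adjusted p = 0.0348). The call was lost without sh-NC replicate 2 (adjusted p = 0.0977) and without either sh-LDB1 library (0.123 without replicate 1 and 0.154 without replicate 2).

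CD36 was the member that fell. CD36 (ENSG00000135218, chr7:80369575-80679277, plus strand) was at 2.92 and 3.25 FPKM in the controls and 0.436 and 0.328 FPKM after knockdown. Both control libraries were above both sh-LDB1 libraries, and the sh-LDB1 mean was 12.4% of the sh-NC mean. The log2 difference was -1.56 (standard error 0.126, limma adjusted p = 0.000642), and without a pseudocount the log2 ratio of the means was -3.01. CD36 passed the filter, a mean of 1 FPKM over the 4 libraries, only through the controls, as its sh-LDB1 mean was 0.382 FPKM. In the limma fit with no filter its adjusted p was 0.00399. CD36 is also carried by red cell precursors, platelets and monocytes. The erythroid markers were lower in sh-LDB1 as well, with 15 of 15 tested genes past the threshold for a fall. So were 2 of 4 tested megakaryocyte and platelet markers, where 10.3% of all genes tested were. With libraries scaled to equal summed FPKM, 13 of 15 erythroid markers were past it, with TFRC at -0.94 and EPOR at -0.88. Without sh-NC replicate 1, EPOR was at -0.98. The summed platelet markers were at 18.4 and 16.5 FPKM in the controls and 6.66 and 6.38 FPKM after knockdown. Of 9 monocyte and macrophage markers with values, 8 stayed under 1 FPKM in all libraries, and the exception was the integrin gene ITGAM at 0.0217 and 0.0596 FPKM in the controls and 4.89 and 4.94 FPKM after knockdown. The part of these other cell type genes in the fall of CD36 was not tested.

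The oxidation genes of the set showed little difference. CPT1A (chr11:68754620-68844410, minus strand) was at 2.51 and 2.39 FPKM in the controls and 2.49 and 2.13 FPKM after knockdown. The groups overlapped, and the log2 difference was -0.06 (standard error 0.0997, limma adjusted p = 0.622), a sign that turned when libraries were scaled to equal sums (0.06) or sh-LDB1 replicate 2 was left out (0.02). ACADVL (chr17:7217125-7225266, plus strand), the most abundant of the 8 genes, was at 59.2 and 53.1 FPKM in the controls and 62.7 and 64.6 FPKM after knockdown. Its log2 difference of 0.18, with a standard error of 0.0653, did not pass the test (limma, adjusted p = 0.0657), but it did without sh-NC replicate 1 (0.26, adjusted p = 0.0147) and with libraries scaled to equal sums (0.35, adjusted p = 0.01).

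PDK4 (chr7:95583499-95596516, minus strand) was near the limit of detection and was not tested. It was at 0.0547 and 0.075 FPKM in the controls and 0.166 and 0.146 FPKM after knockdown. These values stand for about 4, 5, 12 and 10 reads, in that order. The sh-LDB1 libraries were the higher ones, and the ratio of means was 2.4-fold, but at this depth a few reads decide it.

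**Figure D2:**
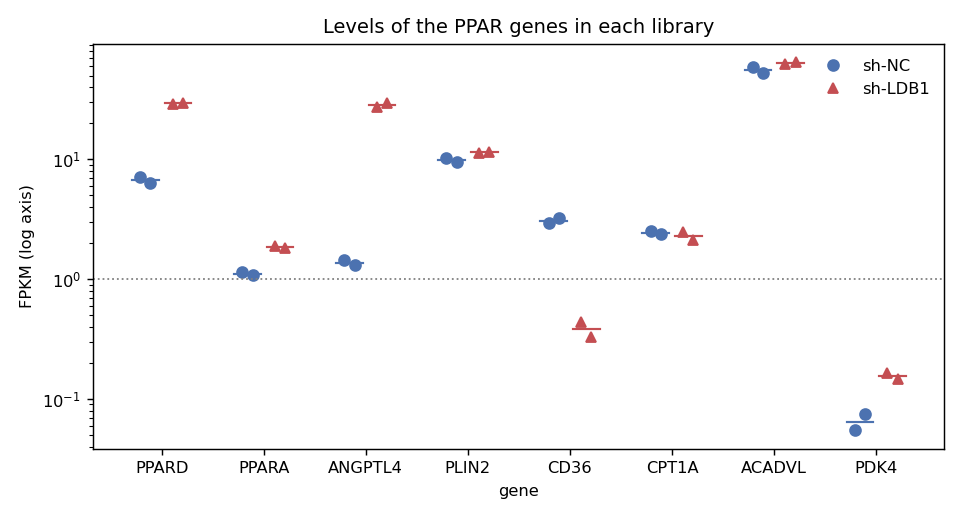
Level in FPKM (y axis, log scale) of the 8 PPAR genes (x axis) in each library. Circles are the 2 sh-NC libraries, triangles the 2 sh-LDB1 libraries, short lines the group means and the dotted line 1 FPKM: ANGPTL4 and PPARD sit higher in sh-LDB1, CD36 sits lower, and PLIN2, CPT1A and ACADVL are nearly level.

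Taking the 6 members other than ANGPTL4 that were tested, 1 (PPARD) was higher and 1 (CD36) was lower by limma at an adjusted p below 0.05 together with a log2 difference beyond 1 in either direction, a fold of 2. By this rule 19.8% of all genes tested passed, 9.5% higher and 10.3% lower. With the adjusted p-value alone, PPARD, PPARA and PLIN2 passed as higher and CD36 as lower, against 67.4% of all genes, 29.9% higher and 37.4% lower. The groups did not overlap for any of these genes but CPT1A, and they did not overlap for 84.6% of all genes tested. The members were drawn up with this contrast in view, so nothing is read from these counts. The median log2 difference was 0.19 for the 6 members and -0.08 for all genes tested. Scaling the libraries to equal summed FPKM moved the median of all genes to 0.07, and the share of lower genes among all calls went from 52% to 37.9%.

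**Figure D3:**
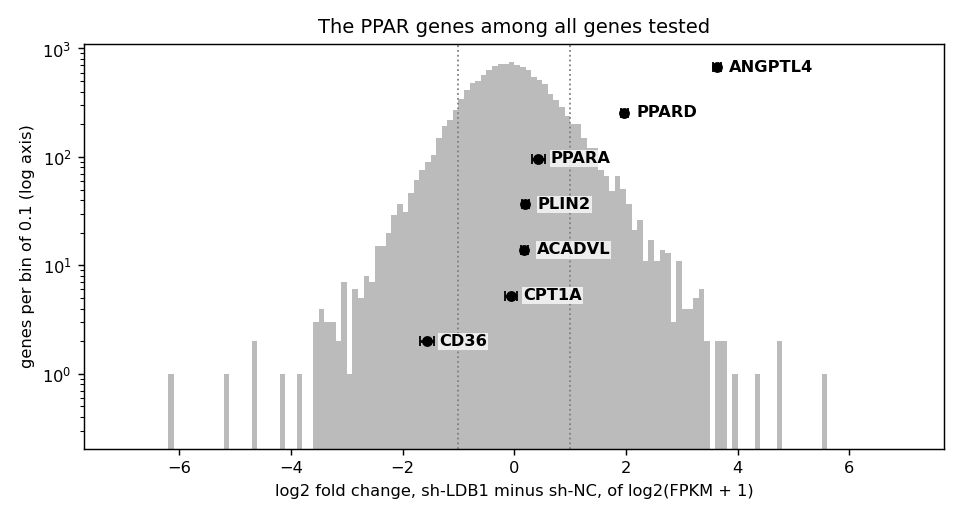
Distribution of the log2 fold change of log2(FPKM + 1), sh-LDB1 minus sh-NC (x axis), over 13300 genes, as the number of genes in bins of 0.1 (y axis, log scale). Black points with bars are the 7 PPAR genes with a fitted value and its standard error, their height is for legibility only, and the dotted lines mark a fold change of 2 in either direction: ANGPTL4 lies at 3.62 and PPARD at 1.97, while CD36 lies at -1.56.

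To set the members among the genes they act with, lists of the surrounding pathways were followed, with the members themselves left out of the counts. The shares over all genes tested, 9.5% higher and 10.3% lower past the fold threshold, are the background of every such count. Of 17 tested RXR partners and PPAR coregulators, 1 was higher and 0 were lower past the fold threshold, with a median log2 difference of -0.02 (0.14 with equal summed FPKM). The 1 was the coactivator NCOA3, at 3.14 and 3.15 FPKM in the controls and 8.37 and 8.51 FPKM after knockdown (log2 difference 1.19, limma adjusted p = 0.000184). By adjusted p-value alone, 7 were higher and 6 were lower, where 29.9% and 37.4% of all genes were.

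The RXR partners differed little. RXRA was at 3.45 and 3.75 FPKM in the controls and 3.63 and 3.82 FPKM after knockdown, with overlapping groups (log2 difference 0.04, standard error 0.076). RXRB was the more abundant partner, with means of 15.2 and 18.5 FPKM, and rose by 0.27 (limma, adjusted p = 0.00723). The corepressor NCOR1 did not pass the test (-0.02, standard error 0.0562). Its partner deacetylase HDAC3 fell by 0.86 on the log2 scale and the Mediator subunit MED1, a coactivator bridge, fell by 0.54 (limma, adjusted p = 0.000188 and 0.000808). PPARGC1A, the coactivator of mitochondrial programs, was listed at 0 FPKM in both sh-NC libraries and at most 0.0243 FPKM in sh-LDB1.

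Other known PPAR targets moved in both directions. Of 50 on the list, 41 had values and 24 passed the filter and were tested. Of the 24 tested, 4 were higher and 3 lower past the fold threshold, with a median of 0.12. With no filter all 41 were tested, and again 4 were higher and 3 lower, beside 1363 and 1385 of all 28412 genes. TXNIP, an arrestin-like brake on glucose uptake, rose from 180.4 and 186.2 FPKM to 709.7 and 691.1 FPKM. HILPDA, a lipid droplet inhibitor of lipolysis, rose from 7.34 and 5.34 FPKM to 16.3 and 17.6 FPKM. The others that rose were the fatty acid transport protein SLC27A1 (log2 difference 1.92) and the oxysterol receptor NR1H3 (1.10). SLC27A1 averaged under 1 FPKM in the controls and passed the filter only through sh-LDB1. SLC27A2, a very long-chain acyl-CoA synthetase and transporter, fell from 17.0 and 19.5 FPKM to 2.72 and 2.995 FPKM, to 15.7% of its control mean. UCP2, a mitochondrial carrier, fell to 34.8% and ACADS, the short-chain acyl-CoA dehydrogenase, to 43.3%. Their limma adjusted p-values ranged from 7.03e-05 for TXNIP to 0.0017 for HILPDA. FABP5, a fatty acid chaperone that delivers ligand to PPARD, was under the filter in both groups, at 0.119 and 0.261 FPKM in the controls and 0.15 and 0.191 FPKM after knockdown.

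Genes of mitochondrial beta-oxidation were more often lower than higher. Beside CPT1A and ACADVL, 17 were tested, and 10 were lower and 2 higher by limma adjusted p-value below 0.05, where 37.4% and 29.9% of all genes were. The median log2 difference was -0.39. Past the fold threshold 0 were higher and 2 were lower, ECI2 (-1.07), an isomerase for unsaturated fatty acids, and ACADS (-1.05). HADHA, a subunit of the trifunctional protein, fell from 100.4 and 99.7 FPKM to 77.3 and 74.8 FPKM, and HADHB fell by 0.41 on the log2 scale. ACADM, the medium-chain dehydrogenase, rose by 0.28 (limma, adjusted p = 0.00675). With equal summed FPKM, 0 genes of this list were past the fold threshold and the median was -0.22, and without sh-LDB1 replicate 1 ACADS was at -0.98.

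Lipid droplet genes had more higher than lower calls. Beside PLIN2, 14 were tested, and 5 were higher and 1 lower past the fold threshold, where 9.5% and 10.3% of all genes were, with a median of 0.63. The 5 were PLIN3, HILPDA and the enzymes GPAT3 (6.34 to 20.2 FPKM as group means, log2 difference 1.53), AGPAT2 (13.2 to 38.9 FPKM, 1.49) and DGAT2 (1.38 to 4.70 FPKM, 1.26). DGAT1, which catalyses the same step of triglyceride synthesis as DGAT2 and was more abundant, did not pass the test, with means of 21.1 and 21.5 FPKM and overlapping groups (log2 difference 0.03, standard error 0.0669). ABHD5, the activator of the lipase PNPLA2, fell from 12.5 and 12.9 FPKM to 5.24 and 5.66 FPKM, while PNPLA2 itself rose by 0.93. With equal summed FPKM the log2 difference of ABHD5 was -0.93, short of the fold threshold. Limma adjusted p-values of these genes other than DGAT1 were at most 0.0017.

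The perilipin family showed where PLIN2 stood. PLIN3, a perilipin that binds nascent droplets, was at 34.3 and 33.2 FPKM in the controls and 71.4 and 75.2 FPKM after knockdown (log2 difference 1.10, standard error 0.0475, limma adjusted p = 0.000152). PLIN2 made up 22.6% and 21.95% of the summed perilipin FPKM in the controls and 13.5% and 13.1% after knockdown. PLIN4 and PLIN5 were under the filter, at most 0.538 and 1.33 FPKM in any library.

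**Figure D4:**
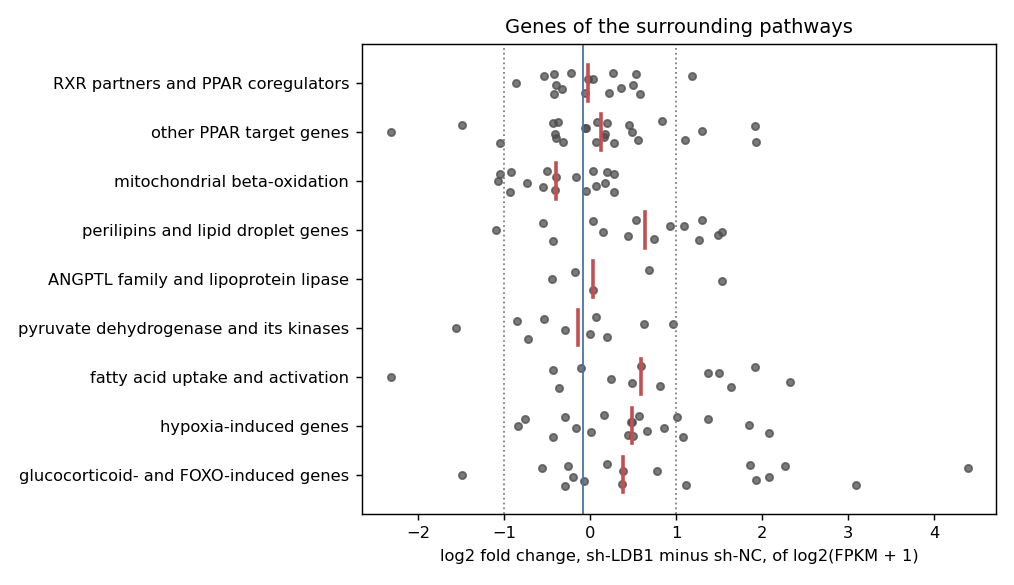
Log2 fold change of log2(FPKM + 1), sh-LDB1 minus sh-NC (x axis), of the tested genes of 9 pathway lists (y axis), with the PPAR members left out and heights within a list spread for legibility. Red bars are list medians, the blue line is the median of all genes tested and the dotted lines mark a fold change of 2: the lipid droplet list has a median of 0.63 and the beta-oxidation list of -0.39.

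The genes around ANGPTL4 in lipoprotein handling were mostly low. Of 5 tested genes of the ANGPTL and lipase list, 1 was higher past the fold threshold, the lipase maturation factor LMF2, from 27.1 and 25.0 FPKM to 74.7 and 79.3 FPKM (log2 difference 1.53, limma adjusted p = 0.000134). LPL, the lipase that ANGPTL4 inhibits, was listed at 0 and 0.0928 FPKM in the controls and 0 and 0.0151 FPKM after knockdown. Of the other family members with values, ANGPTL6 alone was above 1 FPKM in every library, and did not pass the test (-0.17, standard error 0.139). Of the proprotein convertases, which cleave ANGPTL proteins, FURIN rose by 0.68 and PCSK6 fell by 0.44 (limma, adjusted p = 0.000448 and 0.0373).

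Around PDK4, the pyruvate dehydrogenase list had a median of -0.15 over 10 tested genes, a sign that turned with equal summed FPKM (0.01). PDK1, the most abundant of the kinases, fell by 0.29 (limma, adjusted p = 0.0107) from 11.6 and 11.9 FPKM to 9.72 and 9.02 FPKM. DLD, the dihydrolipoamide dehydrogenase that the complex shares with other enzymes, fell to 32.1% of its control mean (log2 difference -1.55, limma adjusted p = 0.000178) and was the 1 gene past the fold threshold. The catalytic subunit PDHA1 fell by 0.85 and the acetyltransferase DLAT fell by 0.72, while the subunit PDHX rose by 0.63 and MPC1 of the mitochondrial pyruvate carrier rose by 0.96 (limma, adjusted p-values at most 0.000596). PDHB, the partner subunit of PDHA1, did not pass the test, with means of 8.99 and 9.01 FPKM.

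Around CD36, 13 genes of fatty acid uptake and activation were tested, and 5 were higher and 1 lower past the fold threshold, with a median of 0.59. The 5 were the lipoprotein receptor LRP1 (log2 difference 2.33), SLC27A1 (1.92), the acyl-CoA-binding domain protein ACBD3 (1.64), SLC27A3 (1.49) and the acyl-CoA-binding protein DBI (1.37). The 1 that fell was SLC27A2 (-2.32), which together with CD36 gave uptake genes in both directions. Limma adjusted p-values of these 6 genes were at most 0.000297. LRP1, SLC27A1 and SLC27A3 averaged under 1 FPKM in the controls and passed the filter only through sh-LDB1. With no filter 21 genes of the list were tested, and again 5 were higher and 1 lower past the fold threshold. Over all 28412 genes, 1363 were then higher and 1385 lower.

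ANGPTL4 is also induced by hypoxia, and a list of 20 hypoxia-induced genes was followed beside it. Of 19 tested, 5 were higher and 0 lower past the fold threshold, where 9.5% and 10.3% of all genes were, with a median of 0.48. NDRG1 rose from 18.3 and 17.0 FPKM to 79.0 and 76.9 FPKM, CA9 from 2.70 and 2.56 FPKM to 12.9 and 11.4 FPKM, and VEGFA from 21.1 and 19.3 FPKM to 41.4 and 41.8 FPKM. ANKRD37 (1.08) and ADM (1.37) were the others. Without sh-NC replicate 2 the log2 difference of VEGFA was 0.94, and without sh-LDB1 replicate 1 ADM was under the filter, which left 4 genes each time. By adjusted p-value alone 13 were higher and 4 were lower, where 29.9% and 37.4% of all genes were. The lower ones held the glucose transporter SLC2A1 and the hydroxylase EGLN1. The part of these genes' inducers in the level of ANGPTL4 was not tested.

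The genes most like ANGPTL4 over the 4 libraries were sought among the genes tested, by the root mean square difference of their log2(FPKM + 1) centred on each gene's mean. Among the nearest were ID3 (0.0478), SELENOM (0.0638), ACVRL1 (0.0813) and CXCL8 (0.103). ID3, an inhibitor of basic helix-loop-helix factors, was at 4.57 and 4.60 FPKM in the controls and 69.5 and 73.3 FPKM after knockdown. Its ratio of means was 15.6-fold. SELENOM, ACVRL1 and CXCL8 were at most 0.552 FPKM in the controls, under ANGPTL4. Their ratios of means were 36.5-, 41.4- and 35.6-fold, against 20.6-fold for ANGPTL4. For SELENOM, ACVRL1 and CXCL8 the likeness thus holds only on the log2(FPKM + 1) scale. No other member of the PPAR set was among the 5 nearest. With 2 against 2 libraries the measure mostly follows the size of the difference, and PPARD, the next member, had 1.97 against 3.62.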

How the data were processed

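Total RNA was sequenced after Illumina TruSeq library preparation. After read filtering and HISAT alignment, the authors deposited FPKM per gene and library. The submitters' processing notes name HISAT2 2.0.5 and hg38. Which annotation and counting tool were used, and whether counting used strand, is not given in the sources used here. The members and lists were chosen with earlier results of these data known.

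The 13300 genes averaging 1 FPKM or more were tested on log2(FPKM + 1) with limma 3.58.1 in R 4.3.3 (eBayes with a trend, 2 against 2 libraries, two-sided, no block), with Benjamini-Hochberg adjustment over all of them. Calls took the study's fold threshold (above 2 or below 0.5). The steps were tested on simulated data. Named genes were the members, LDB1, 8 genes fixed by name (such as RXRA), the list genes past the threshold with a mean of at least 5 FPKM, and the 5 nearest to ANGPTL4. Genes named outside this rule, among them SLC27A1, NR1H3, DGAT2, HDAC3, ACADM, PDK1 and ADM, were chosen after their values were seen. Some genes that the rule names are not reported here.

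Depth was recovered from low FPKM values, which are whole multiples of 1 read. The library sizes by which FPKM had been divided were 14746400 to 16181300 reads, and 87.9% to 88.0% of low values of single-transcript genes came out within 0.05 of a whole read. Reads of a gene are estimates from its exonic length in GENCODE 44. Replicates correlated at 0.985 (sh-NC) and 0.984 (sh-LDB1) across genes. The alternatives were a pseudocount of 0.1, no filter, equal summed FPKM, no trend, a replicate block, each library left out, no fold threshold and ratios of means.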

Additional observations from a re-analysis of the deposited data

How the results depend on the processing

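ANGPTL4 stayed higher in sh-LDB1 under every alternative run. Its log2 difference of 3.62 was 4.27 with a pseudocount of 0.1, 3.76 with equal summed FPKM and 4.36 as the ratio of means with no pseudocount. PPARD and CD36 kept their direction and stayed past the threshold in every alternative fit, with log2 differences from 1.91 to 2.13 and from -2.73 to -1.48. CPT1A changed sign with equal summed FPKM (0.0612) and without sh-LDB1 replicate 2 (0.0174), and ranged from -0.138 to 0.0174 when 1 library was left out. The call of PLIN2 was lost without a filter (adjusted p = 0.0573) and without a trend (0.0554), and that of PPARA without a filter (0.0604). With no fold threshold, 3983 genes were higher and 4978 lower, or 29.9% and 37.4% of all genes tested. With it, 1264 were higher and 1371 lower, or 9.5% and 10.3%. Of 119 pathway list genes tested, 57 were higher and 36 lower without the fold threshold, against 25 and 7 with it. With equal summed FPKM 4 list genes were lower. The replicate numbers pair no libraries by the labels, and the replicate 1 minus replicate 2 differences of the groups correlated at 0.02 over genes. With a replicate block 1274 genes were higher and 1386 lower, and PLIN2 (adjusted p = 0.0637) and PPARA (adjusted p = 0.0507) did not pass. The cause of these changes was not tested. With 2 libraries a group, genes of few reads such as PDK4 cannot be resolved.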

Other observations

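ANGPTL4 and PDK4 are also known targets of the glucocorticoid receptor, and PDK4 of FOXO factors, so a list of 20 genes induced by either was described. Of 17 tested, 7 were higher and 1 lower past the fold threshold, where 9.5% and 10.3% of all genes were, with a median log2 difference of 0.39 (limma). KLF2, a FOXO-induced transcription factor, was at 0.398 and 0.638 FPKM in the controls and 29.9 and 31.4 FPKM after knockdown. BCL6, a repressor, rose from 2.85 and 2.93 FPKM to 32.3 and 32.2 FPKM. IRS2, an insulin receptor substrate, rose by 1.12, and TXNIP, described above, was also past the threshold. Of the glucocorticoid-induced genes, TSC22D3 rose from 0.545 and 0.697 FPKM to 6.05 and 5.69 FPKM. DUSP1, a MAP kinase phosphatase, rose from 11.0 and 13.9 FPKM to 46.99 and 47.7 FPKM, NFKBIA, the inhibitor of NF-kB, rose from 5.91 and 7.57 FPKM to 36.19 and 36.04 FPKM, and the clock gene PER1 rose by 0.78. FKBP5 was the 1 gene past the threshold for a fall, from 27.6 and 28.1 FPKM to 9.64 and 8.99 FPKM. By limma adjusted p-value alone, 9 genes of the list were higher and 3 lower, where 29.9% and 37.4% of all genes were. The list thus held more higher than lower calls. KLF2 and TSC22D3 were under 1 FPKM in both controls and passed the filter only through sh-LDB1. With no filter 20 genes of the list were tested, and again 7 were higher and 1 lower past the fold threshold.

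Adipocyte markers stayed low. Of 12, 8 had values, and 7 of these were under 1 FPKM in all libraries. The exception was CFD, which encodes complement factor D, at 26.9 FPKM in both controls and 35.6 and 38.7 FPKM after knockdown.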
